A study of Ovis aries with 23 samples.

Results

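Pars tuberalis (PT) samples collected after 7 days on long photoperiods (LPs) were compared with samples collected after 28 days on LPs, which asks what still changed in the tissue after the first week of LP exposure. The 12 samples were picked by their labels, with earlier results of these data known. They are 6 from LP day 7 and 6 from LP day 28, out of 23 RNA sequencing samples in the series. All animals were castrate (neutered) male Scottish blackface sheep that had been held on short photoperiods (SPs) before transfer to LPs, so both groups share the castration and the earlier SPs and differ in days on LPs. The other 11 samples, 5 on SPs and 6 at LP day 1, are used as a background for levels. The labels number the samples of each group from 1 to 6, do not say whether each sample is 1 animal, and give no age.

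The PT is a thin layer of the anterior pituitary around its stalk, next to the median eminence of the hypothalamus. Melatonin, the nocturnal hormone of the pineal gland, acts on the PT through the receptor MTNR1A, and on LPs the thyrotroph cells of the PT make thyrotropin from the subunits TSHB and CGA. This thyrotropin acts on neighbouring tanycytes, which set the local level of active thyroid hormone and with it the seasonal state of the reproductive and other endocrine axes. The PT also expresses clock genes at a high level, and its cells change shape with the season.

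Between LP days 7 and 28 a small number of genes passed the test for a difference, and that number depended on the processing. The melanin synthesis gene DCT was 3.17-fold lower at LP day 28 than at LP day 7, and the morphogen gene SHH was 2.03-fold lower. Of the genes that passed, DCT alone did so in each fit with 1 sample left out. Among genes that were higher, VMO1 was 3.31-fold, ANG-1 2.29-fold, and SLC4A11 2.20-fold higher at LP day 28. RPN2, a subunit of the complex that attaches sugar chains to proteins in the rough endoplasmic reticulum, and SPOCK2, a matrix proteoglycan, rose by smaller factors of 1.53 and 1.44. The thyrotropin gene TSHB stood 2.18-fold higher at LP day 28 without passing the threshold (FDR 0.0841).

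Total counts per sample lay between 2741520 and 3594414 at LP day 7 and between 2190640 and 4413929 at LP day 28. Mean totals of 3348210 and 3234927 counts differed by less than the spread between samples (two-sided exact permutation test of day within odd and within even sample numbers, p = 0.765). Levels are given as CPM, the counts of a gene scaled to a common library size. The detection limit was set at 3 counts, or 0.68 to 1.37 CPM in these samples, which covers counting error only. Among the background samples, LP day 1 sample 4 had only 307952 counts, so 3 counts were 9.74 CPM there. That sample gave the lowest LP day 1 value of BAIAP3 and the highest of SHH and GADD45G, so these ends of the LP day 1 ranges are less certain. LP day 7 sample 3 stood apart from the other 11 samples in 1 group of genes, those induced by interferon. All 17 genes of that list that could be found had their highest level there, and their summed level was 9923 CPM against 337 to 482 CPM in the other 11 samples. Calls are therefore given with and without it. The thyrotroph genes TSHB and CGA had at least 289 and 5200 CPM in each of the 12 samples. PRL and GH1, hormone genes of the neighbouring pars distalis (PD), were also present in each sample. The study found TSHB protein in thyrotrophs of the PD too, so the levels of TSHB and CGA cannot tell PT from PD tissue. PRL took 6.87 ± 4.06% of the counts at LP day 7 and 14.2 ± 5.82% at LP day 28 (SD, n = 6 each), with 3 LP day 28 samples above all LP day 7 samples (p = 0.045, same exact permutation test, in which the smallest possible p was 0.005). In bulk samples such as these, fewer cells of a type and less RNA per cell cannot be told apart.

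Of 25197 genes, 14890 had more than 1 CPM in at least 6 of the 12 samples and were tested with edgeR's quasi-likelihood test, with odd or even sample number as a covariate. The false discovery rate (FDR) was controlled by the Benjamini-Hochberg method, and 10 genes passed at 0.05 and are called differentially expressed (DE), which is 0.0672% of the genes tested. Of these, 7 were higher at LP day 28 (0.047%) and 3 were lower (0.0201%). An unadjusted p under 0.05 was found for 1122 genes (7.54%), 577 of them higher (3.88%) and 545 lower (3.66%). Gene symbols were at hand for 1079 of the tested genes, mostly genes that the study had called in its own comparisons, and 9 of the 10 DE genes were among them. Of the 1079 tested genes with a symbol, 25.1% had an unadjusted p under 0.05, 143 of them higher and 128 lower at LP day 28. Counts within gene lists are to be read against that share, and counts in 1 direction against the 143 or 128 of 1079. Without LP day 7 sample 3, 6 of the 10 genes remained DE (DCT, SHH, VMO1, ANG-1, PPEF1, and RPN2) and no other gene was added.

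DCT (ENSOARG00000000618) encodes dopachrome tautomerase, an enzyme of melanin synthesis. Its expression was 160 to 338 CPM at LP day 7, with a median of 232 CPM, and 49.9 to 110 CPM at LP day 28, with a median of 76.0 CPM. The groups did not overlap, with all LP day 28 samples lower, and the highest value was that of LP day 7 sample 6. The log2 fold change was -1.67 (standard error, SE, 0.15, FDR 2.88e-05). DCT was the only gene that was DE in all 12 fits with a sample left out, with log2 fold changes from -1.77 to -1.59, and in all 16 other settings tried. Its level was 1.69 to 22.9 CPM on SPs and 13.2 to 53.9 CPM at LP day 1, so the LP day 28 values lay between those of SPs and those of LP day 7. Of the other genes of melanin synthesis, KIT, GPNMB, TYRP1, and SOX10 could be found, and none was DE. TYRP1, an enzyme of the same pathway, had a log2 fold change of 0.51 (SE 0.20, FDR 0.569), opposite in sign to that of DCT. SOX10, a transcription factor of melanocytes and glia, had a log2 fold change of -1.04 (SE 0.35, FDR 0.474). Of 6 melanocyte markers, these last 2 genes were the ones that could be found, and their summed level was 14.7 to 30.2 CPM at LP day 7 and 16.4 to 33.9 CPM at LP day 28.

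SHH (ENSOARG00000006942) encodes sonic hedgehog, a secreted morphogen of pituitary and brain development. It had 65.5 to 105 CPM at LP day 7 (median 80.0 CPM) and 22.3 to 55.8 CPM at LP day 28 (median 41.6 CPM). The groups did not overlap, and the log2 fold change was -1.02 (SE 0.17, FDR 0.0355). On SPs it stood at 8.37 to 17.8 CPM and at LP day 1 at 18.3 to 62.3 CPM. As with DCT, each LP day 28 value was thus above each SP value and below each LP day 7 value. No receptor, target, or other member of the hedgehog pathway had a symbol at hand, so SHH is the sole gene of its 21-gene list that could be described. BAIAP3 (ENSOARG00000015428), of the Munc13 family that acts in the release of dense-core vesicles, had 554 to 817 CPM at LP day 7 (median 672 CPM) and 409 to 544 CPM at LP day 28 (median 462 CPM). It fell by 0.52 on the log2 scale (SE 0.09, FDR 0.0355), again without overlap. Its range was 524 to 958 CPM on SPs (median 845 CPM) and 507 to 789 CPM at LP day 1 (median 723 CPM). Both ranges overlapped that of LP day 7, while both medians were above that of LP day 7. At LP day 7 it had 745 to 817 CPM in odd-numbered and 554 to 599 CPM in even-numbered samples.

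**Figure D1:**
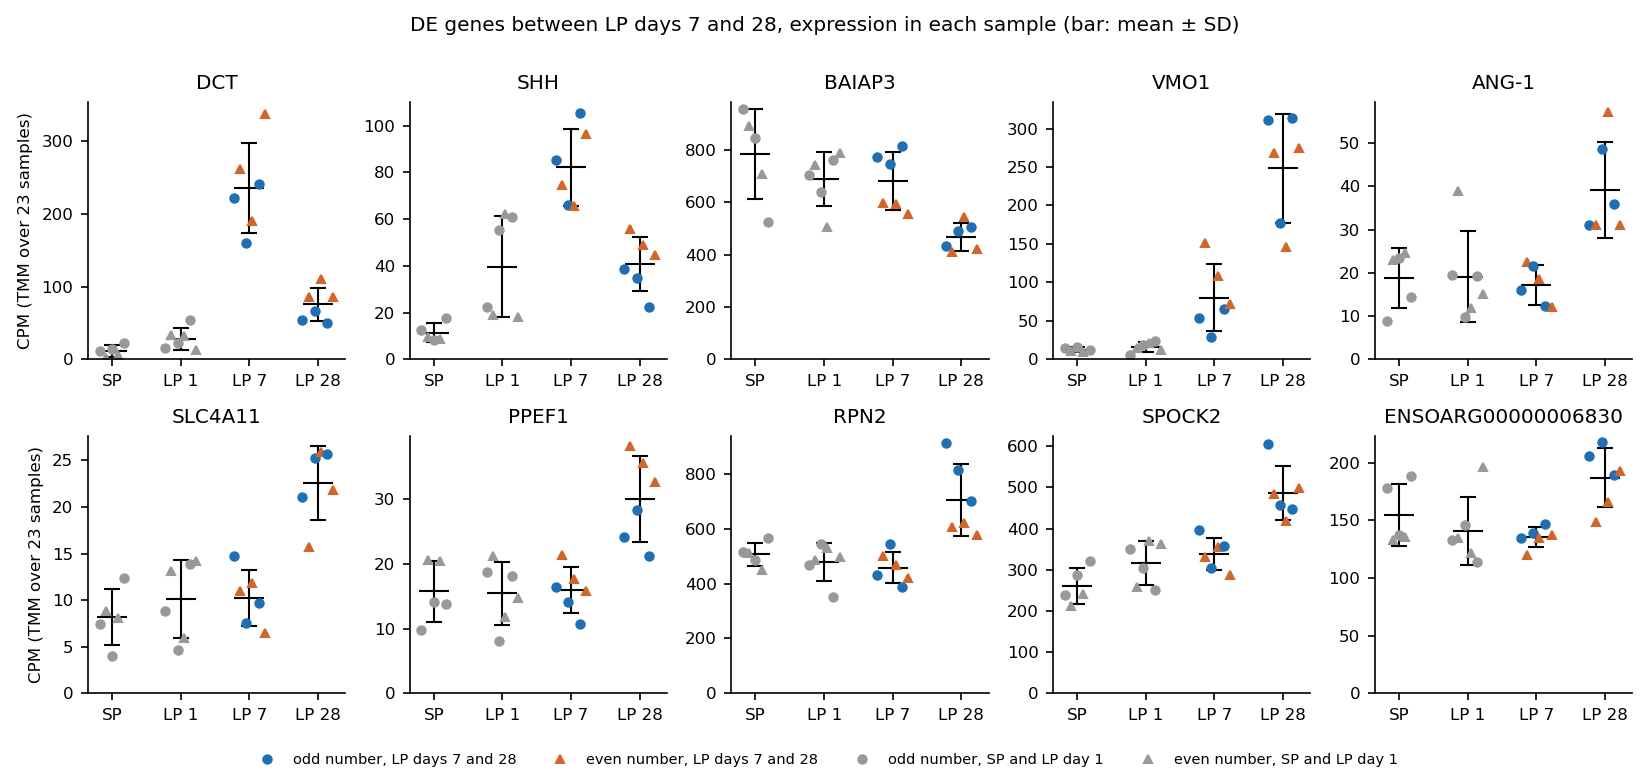
Expression of the 10 DE genes in each sample, in CPM normalized over all 23 samples, on SPs and at LP days 1, 7, and 28. Circles are odd-numbered and triangles even-numbered samples, coloured at LP days 7 and 28 and grey on SPs and at LP day 1, and black bars give the mean ± SD. DCT and SHH were highest at LP day 7, whereas VMO1, with 145 to 314 CPM at LP day 28, was highest there.

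VMO1 (ENSOARG00000007112) encodes a secreted protein first known from the outer layer of the egg's vitelline membrane. It had 29.2 to 152 CPM at LP day 7 (median 68.8 CPM) and 145 to 314 CPM at LP day 28 (median 272 CPM). Of the LP day 28 samples, 5 were above every LP day 7 sample, and sample 4, the lowest, was just below LP day 7 sample 2, the highest. The log2 fold change was 1.72 (SE 0.28, FDR 0.0355). On SPs and at LP day 1 no sample exceeded 23.7 CPM. The SP median was 11.6 CPM and the LP day 1 median 16.4 CPM. For VMO1, unlike DCT and SHH, the LP day 28 median was above that of LP day 7.

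ANG-1 (ENSOARG00000015100) and SLC4A11 (ENSOARG00000003685), a membrane transporter of the bicarbonate transporter family, had LP day 7 levels that overlapped those on SPs and at LP day 1. ANG-1 had 12 to 22.6 CPM at LP day 7 (median 17.2 CPM) and 31.0 to 57.2 CPM at LP day 28 (median 33.5 CPM), without overlap. Its log2 fold change was 1.20 (SE 0.20, FDR 0.0355). SLC4A11 had 6.52 to 14.8 CPM at LP day 7 (median 10.3 CPM) and 15.7 to 25.9 CPM at LP day 28 (median 23.6 CPM), also without overlap, and its log2 fold change was 1.14 (SE 0.19, FDR 0.0355). On SPs the levels were 8.74 to 24.6 CPM for ANG-1 and 4.04 to 12.4 CPM for SLC4A11. At LP day 1 they were 9.68 to 39.1 CPM and 4.68 to 14.2 CPM, so the highest LP day 1 value of ANG-1 lay within the LP day 28 range. PPEF1 (ENSOARG00000013957), a calcium-binding protein phosphatase, showed 10.7 to 21.4 CPM at LP day 7 (median 16.2 CPM) and 21.3 to 38.3 CPM at LP day 28 (median 30.6 CPM). LP day 28 sample 5 was just below LP day 7 sample 2, and the other 5 were above every LP day 7 sample. Its log2 fold change was 0.91 (SE 0.14, FDR 0.0308).

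RPN2 (ENSOARG00000017801) had 389 to 543 CPM at LP day 7 (median 448 CPM) and 577 to 910 CPM at LP day 28 (median 661 CPM). SPOCK2 (ENSOARG00000007029), also named testican-2, had 287 to 396 CPM at LP day 7 (median 343 CPM) and 419 to 606 CPM at LP day 28 (median 471 CPM). Neither gene overlapped between the groups. The log2 fold changes were 0.61 (SE 0.10, FDR 0.0355) for RPN2 and 0.53 (SE 0.09, FDR 0.0418) for SPOCK2. On SPs, RPN2 stood at 451 to 567 CPM and SPOCK2 at 213 to 321 CPM. The remaining DE gene, ENSOARG00000006830, has no symbol here and is named because it completes the 10. It had 120 to 147 CPM at LP day 7 (median 136 CPM) and 149 to 218 CPM at LP day 28 (median 191 CPM), with a log2 fold change of 0.47 (SE 0.08, FDR 0.0435).

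Of the 10 DE genes, 8 did not overlap between the groups. Over all genes tested, 54 did not overlap (0.363%), with 21 higher (0.141%) and 33 lower (0.222%) at LP day 28. The calls other than DCT were sensitive to single samples. PPEF1 was DE in 6 of the 12 fits with a sample left out, SHH in 5, VMO1, ANG-1, and RPN2 in 4 each, SLC4A11 and ENSOARG00000006830 in 2 each, and SPOCK2 and BAIAP3 in 1 each. Without LP day 7 sample 5 or 6, or without LP day 28 sample 1 or 6, DCT alone was DE, and without LP day 28 sample 4 the number rose to 19. All 10 genes kept the sign of their log2 fold change in each of these 12 fits. They were chosen from these same samples, so neither the kept sign nor the lack of overlap says much about how firm the calls are. Without the covariate, DCT was the only DE gene. Of the 16 other settings, VMO1 was DE in 13, ANG-1 and PPEF1 in 12 each, and SHH in 11. RPN2 and BAIAP3 were DE in 10 each, SLC4A11 and SPOCK2 in 9 each, and ENSOARG00000006830 in 8. With robust estimation in edgeR's quasi-likelihood test, VMO1 was not DE (FDR 0.265).

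Several genes came close to the threshold, of which those of lowest p are given that, with the DE genes, make 10 genes with a symbol in each direction. Among those higher at LP day 28, CYP4V2, a fatty acid hydroxylase, had a log2 fold change of 0.65 (SE 0.12, FDR 0.0502), LUZP2 one of 0.84 (SE 0.17, FDR 0.103), and ABCG2, an efflux transporter, one of 1.29 (SE 0.26, FDR 0.11). Among those lower, the sodium and calcium exchanger SLC8A2 had -0.67 (SE 0.13) and the kinase SIK2 -0.94 (SE 0.18), each with an FDR of 0.0841. The transcription factor KLF10 had -0.47 (SE 0.09, FDR 0.101), and the stress-induced gene GADD45G had -1.88 (SE 0.38, FDR 0.101). PLXNA4, a receptor for semaphorins, the matrix protease ADAMTS16, and the receptor phosphatase PTPRO had log2 fold changes of -0.91, -1.70, and -0.80, each with an FDR of 0.125. KLF10 had 77.6 to 92.0 CPM at LP day 7 against 49.9 to 70.2 CPM at LP day 28, without overlap. GADD45G had few counts in the 12 samples. It had 10.3 to 15.1 CPM in the even-numbered LP day 7 samples, whereas the other 9 samples had 0.284 to 2.74 CPM. Its range was 1.73 to 93.4 CPM on SPs and 3.74 to 113 CPM at LP day 1.

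The labels do not say what odd and even sample numbers stand for, and the covariate was chosen with earlier results of these data known. Between even and odd numbers, within both days, 152 genes were DE (1.02%), with 45 higher (0.302%) and 107 lower (0.719%) in even-numbered samples. None of the 10 genes DE between the days was among them, which at a share of 1.02% says nothing about the 10. In the odd-numbered samples alone (3 against 3) and in the even-numbered samples alone, all 10 kept the sign of their log2 fold change. So did the 11 genes that are named above as close to the threshold (TSHB included). These 21 genes were chosen from the same samples, so a shared sign was largely fixed in advance and is no further support. Of the 11, SIK2 and GADD45G were DE by odd and even number (FDRs 0.00892 and 0.00712). Of the 21 genes, 4 were DE in the odd-numbered samples alone, DCT (log2 fold change -1.85, FDR 0.00287), VMO1 (2.44, FDR 0.00604), ABCG2 (2.04, FDR 0.00604), and TSHB, given below. In the even-numbered samples alone, 2 were DE, DCT (-1.48, FDR 0.0176) and GADD45G (-2.47, FDR 0.037). For VMO1 the difference was smaller in even-numbered samples (1.05, SE 0.25), and the test of that difference between odd and even did not pass (FDR 0.638).

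**Figure D2:**
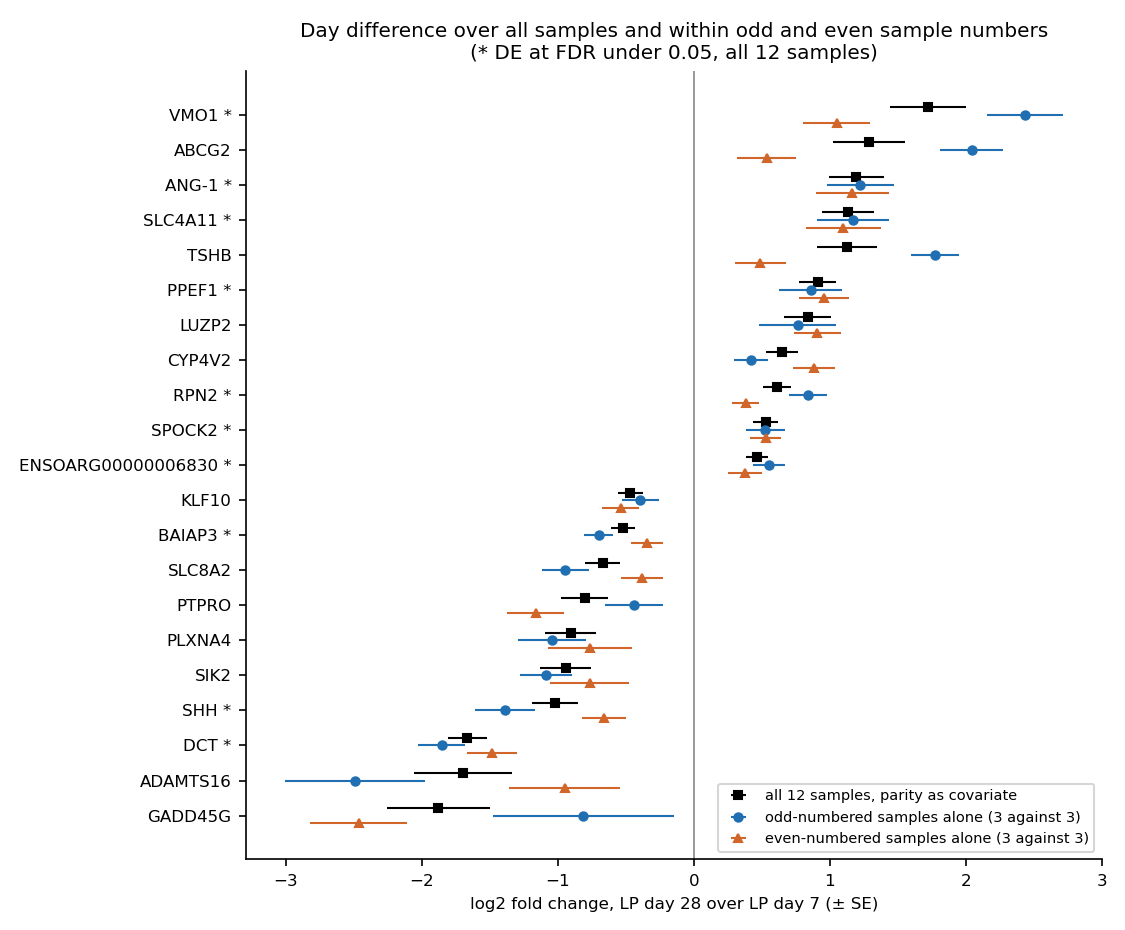
Log2 fold changes of LP day 28 over LP day 7, with SEs, for the 10 DE genes (asterisks) and 11 further genes, those of lowest p that bring each direction to 10 genes with a symbol. Squares are the fit over all 12 samples, circles the odd-numbered and triangles the even-numbered samples alone. All 21 genes lie on 1 side of zero in the 3 estimates, and the odd and even estimates of GADD45G, ADAMTS16, ABCG2, VMO1, and TSHB lie furthest apart. The genes were chosen in the fit over all 12 samples, so the shared side is no further support.

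A test of whether the day difference itself differed between odd and even numbers found 1 DE gene (0.00672%), and 1014 genes had an unadjusted p under 0.05 (6.81%). That gene was DRD1, a dopamine receptor that raises cyclic AMP. In odd-numbered samples DRD1 had 1.53 to 3.77 CPM at LP day 7 and 8.55 to 11.6 CPM at LP day 28. In even-numbered samples it had 36.2 to 38.4 CPM at LP day 7 and 20.3 to 22.2 CPM at LP day 28. Its level was thus higher at LP day 28 in every odd-numbered sample and lower in every even-numbered sample, and the interaction was -2.61 on the log2 scale (SE 0.36, FDR 0.0228). It had 0.14 (SE 0.34, FDR 0.959) as its overall day difference. The call was lost without any 1 of LP day 7 samples 2, 4, and 6 and LP day 28 samples 2, 3, 4, 5, and 6, and the same test without LP day 7 sample 5 gave 2 genes.

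Of 16 thyrotroph genes listed, 8 could be found, and none was DE between the days. Their median log2 fold change was 0.11, against 0.001 over all genes tested, and it was -0.0071 with library size scaling. With an unadjusted p under 0.05, 4 were higher and none was lower, and these were TSHB, CGA, and the transcription factors PITX1 and SIX6. TSHB had 289 to 1151 CPM at LP day 7 (median 559 CPM) and 921 to 1580 CPM at LP day 28 (median 1204 CPM), with 4 LP day 28 samples above all LP day 7 samples. Its log2 fold change was 1.13 (SE 0.22, FDR 0.0841). In odd-numbered samples alone, TSHB went from 289 to 452 CPM at LP day 7 to 1070 to 1580 CPM at LP day 28 (log2 fold change 1.77, FDR 0.00287), and in even-numbered samples from 666 to 1151 CPM to 921 to 1326 CPM (0.49, FDR 0.994). The difference between odd and even numbers did not pass its own test (FDR 0.39). CGA, the subunit shared with other pituitary hormones, had 5200 to 9125 CPM at LP day 7 and 7993 to 10400 CPM at LP day 28, with a log2 fold change of 0.37 (SE 0.11, FDR 0.386).

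EYA3, a co-activator of TSHB, TSHR, the thyrotropin receptor, and MTNR1A differed between odd and even sample numbers, and none of the 3 was DE between the days. EYA3 had 123 to 969 CPM in odd-numbered and 30.9 to 58.5 CPM in even-numbered samples of both days. MTNR1A showed 14.5 to 41.5 CPM in odd-numbered and 0.537 to 7.02 CPM in even-numbered samples, and TSHR 10.7 to 24.2 CPM against 46.1 to 115 CPM. The differences of even against odd were -3.36, -3.30, and 2.19 on the log2 scale, with FDRs of 5.69e-05, 3.04e-04, and 2.19e-05. For the days, the log2 fold changes were -0.26 (SE 0.32) for EYA3, -0.16 (SE 0.38) for MTNR1A, and -0.39 (SE 0.20) for TSHR, with FDRs of 0.903, 0.96, and 0.679. The sign for EYA3 turned without LP day 7 sample 1, which had the 969 CPM, or without LP day 28 sample 3, and that for MTNR1A turned under DESeq2 and without LP day 7 sample 5 or LP day 28 sample 3.

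**Figure D3:**
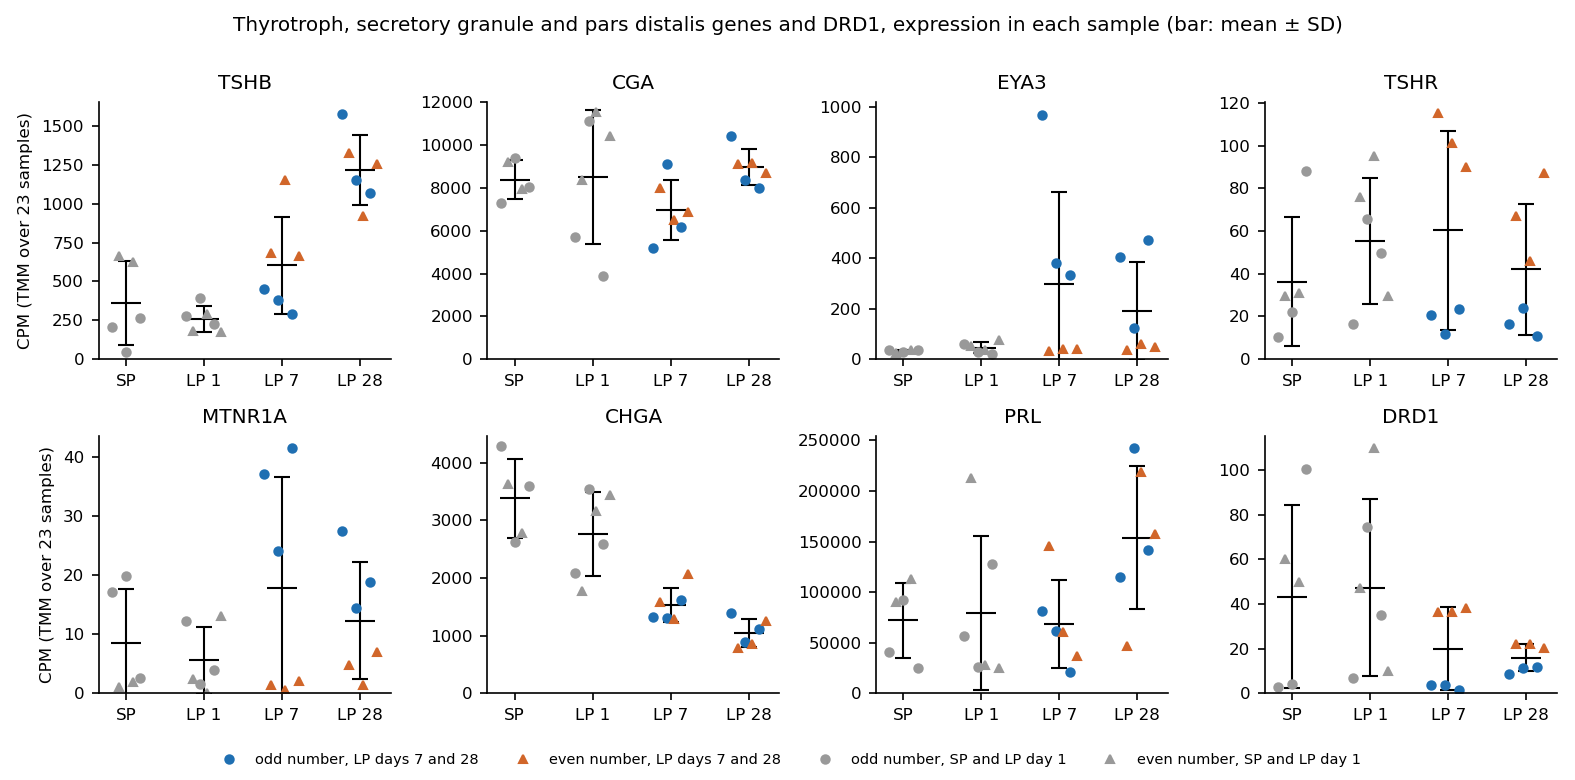
Expression in each sample, in CPM normalized over all 23 samples, of TSHB, CGA, EYA3, TSHR, MTNR1A, CHGA, PRL, and DRD1 on SPs and at LP days 1, 7, and 28. Circles are odd-numbered and triangles even-numbered samples, coloured at LP days 7 and 28, and black bars give the mean ± SD. EYA3, TSHR, and MTNR1A split by odd and even number at LP days 7 and 28, whereas CGA did not.

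Of 25 clock genes listed, 13 could be found, and none was DE between the days or had an unadjusted p under 0.05. The median log2 fold change was -0.13, with 4 genes above and 9 below zero, and -0.25 (3 above and 10 below) with library size scaling. By odd and even number, 6 of the 13 were DE, 1 higher and 5 lower in even-numbered samples, against 1.02% of all genes tested and 6.21% of those with a symbol. The repressor CRY1 was higher by 3.18 on the log2 scale in even-numbered samples (FDR 2.88e-08). CIART, NR1D1, BHLHE41, DBP, and TEF had values of -2.01, -1.55, -1.25, -0.90, and -0.58. PDE10A, a phosphodiesterase that breaks down cyclic AMP, differed likewise (-1.48, FDR 3.03e-04).

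Thyroid hormone handling was covered by 6 of 12 listed genes, none of them DE. With an unadjusted p under 0.05, 3 were lower at LP day 28, and the median log2 fold change was -0.31, with 5 of 6 below zero. DIO2, which makes active thyroid hormone, had 10.6 to 31.0 CPM at LP day 7 and 6.30 to 17.6 CPM at LP day 28 (log2 fold change -0.65, SE 0.27, FDR 0.596). SLCO1C1, a thyroid hormone transporter, and the receptor THRA had -0.40 (FDR 0.514) and -0.22 (FDR 0.464). TRH, the hypothalamic releasing hormone of thyrotropin, stood at 9.02 to 42.5 CPM at LP day 7 and 3.87 to 13.8 CPM at LP day 28 (-1.40, SE 0.31, FDR 0.161). TAC1, a neuropeptide precursor put forward as a PT signal to the PD, had 1.78 to 10.95 CPM and 3.13 to 45.8 CPM on the respective days (1.42, SE 0.42, FDR 0.362). TAC1 was DE in the fit without LP day 28 sample 3.

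Genes of the secretory pathway differed in direction. Of 35 secretory granule genes listed, 11 could be found, and none was DE. With an unadjusted p under 0.05, SCG3 (log2 fold change 0.50, FDR 0.187), the prohormone convertase PCSK1 (0.70, FDR 0.255), and VGF (0.47, FDR 0.544) were higher and CHGA lower. The median over the 11 was 0.17, and 8 lay above zero. With library size scaling these were 0.05 and 6. CHGA, the granule protein chromogranin A, had 1299 to 2069 CPM at LP day 7 (median 1447 CPM) and 793 to 1391 CPM at LP day 28 (median 1005 CPM). Of the LP day 28 samples, 5 were below every LP day 7 sample, and the log2 fold change of -0.54 (SE 0.14) did not pass (FDR 0.285). On SPs CHGA stood at 2629 to 4292 CPM, above all samples of both days. Of 84 genes for folding and transport in the endoplasmic reticulum and Golgi, 4 could be found. RPN2 was DE, EDEM1 and CKAP4 had log2 fold changes of 0.36 each (FDRs 0.608 and 0.549), and CREB3L2 had -0.31 (FDR 0.852), which is too few genes to describe the pathway.

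Matrix and adhesion genes were the list with the most members at hand, 30 of 130, all of them tested. SPOCK2 was the 1 member that was DE. With an unadjusted p under 0.05, 9 were higher and 2 lower at LP day 28, and the median log2 fold change was 0.05. The collagen gene COL5A2 had 93.6 to 306 CPM at LP day 7 and 157 to 458 CPM at LP day 28 (log2 fold change 0.93, SE 0.29, FDR 0.439), and COL3A1 had 246 to 594 CPM and 396 to 656 CPM (0.50, SE 0.17, FDR 0.502). ACAN, a proteoglycan of cartilage and nerve nets, and COL2A1 were the members lower, with -0.77 (FDR 0.549) and -0.43 (FDR 0.569). With library size scaling, which moved the median of all genes to -0.12, the median of the list was -0.06, so its sign depended on the scaling. Of 10 fibroblast and meninges markers, 6 could be found, and all 6 had log2 fold changes above zero under each of the 4 scalings, with a median of 0.31, or 0.18 with library size scaling. Of the 6, 4 had an unadjusted p under 0.05. Their summed level was 1535 to 2541 CPM at LP day 7 and 2278 to 3035 CPM at LP day 28. COL1A1, COL1A2, and COL3A1 are in both lists, and the part of fibroblast content in the matrix values was not tested.

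Signalling lists held few genes with a symbol. For Wnt, 5 of 47 listed genes were tested and none was DE. WIF1, a secreted Wnt inhibitor, had 29.5 to 78.4 CPM at LP day 7 and 56.0 to 213 CPM at LP day 28 (log2 fold change 0.81, SE 0.27, FDR 0.468), with the highest value in LP day 28 sample 6. For bone morphogenetic protein and transforming growth factor beta signalling 6 genes and for Notch 2 genes were tested, with none DE and none with an unadjusted p under 0.05. For axon guidance 9 genes were tested and none was DE. NTN4, a netrin, had a log2 fold change of 0.62 (SE 0.15, FDR 0.187), and PLXNA4 is given above. KAL1, which guides neurons that release gonadotropin-releasing hormone, had 33.4 to 69.2 CPM in odd-numbered and 7.72 to 13.3 CPM in even-numbered samples and a log2 fold change of 0.12 between the days (SE 0.20, FDR 0.929). SEMA3D, a semaphorin, had 0.764 to 2.32 CPM at LP day 7 and 0.673 to 2.05 CPM at LP day 28 (-0.36, SE 0.40, FDR 0.896), close to the detection limit.

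None of the study's other SP markers was DE between the days. NPSR1, a neuropeptide receptor, had 1.27 to 3.43 CPM at LP day 7 and 0.336 to 1.94 CPM at LP day 28 (log2 fold change -1.37, SE 0.46, FDR 0.47). PAQR6, C1orf110, and SOX14 had log2 fold changes of -0.04, 0.19, and 0.27, with SEs of 0.21, 0.53, and 0.36 and FDRs of 0.98, 0.963, and 0.91. GPR56 (0.03, SE 0.17, FDR 0.988) and the proteoglycan NCAN (-0.41, SE 0.33, FDR 0.836), which the study plotted, were also not DE. DNAH8 did not pass the filter on low counts, at 0 to 0.806 CPM at LP day 7 and 0 to 2.40 CPM at LP day 28.

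Markers of other cell types were looked at for the tissue around the PT. Of 11 PD markers, 9 could be found and none was DE, with a median log2 fold change of 0.11, which was -0.0143 with library size scaling. PRL had 21520 to 145700 CPM at LP day 7 and 46940 to 242600 CPM at LP day 28 (1.20, SE 0.39, FDR 0.458). GH1 had -0.38 (SE 0.26, FDR 0.782), opposite in sign to PRL, and POU1F1, a transcription factor of the cells that make both, had 0.35 (SE 0.20, FDR 0.744). With the GH1 level of each sample as a further covariate, 6 genes were DE, all of them among the 10. Tanycyte and ependymal markers (5 found of 14) included VIM, higher at 0.27 (FDR 0.491), and the cilia genes CCDC153 and TEKT1, at -0.57 (FDR 0.33) and -0.40 (FDR 0.561). Folliculostellate (5 found of 11), neuronal (5 of 20), oligodendrocyte (1 of 8), and immune markers (2 of 15) held no DE gene, and beside TRH none of their members had an unadjusted p under 0.05. No endothelial, smooth muscle, or blood marker had a symbol at hand. Of 5 cell division genes, none was DE. MKI67, a marker of dividing cells, had a log2 fold change of 0.33 (SE 0.24, FDR 0.814), TOP2A 0.18 (SE 0.18, FDR 0.885), and BUB1B 0.73 (SE 0.28, FDR 0.549). Of 7 immediate early genes none was DE, and NR4A1 had 0.69 (SE 0.32, FDR 0.652).

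The interferon-induced genes were the list with the most negative median, -2.13, and all 17 genes tested had negative log2 fold changes, 13 with an unadjusted p under 0.05 and none DE. These are the genes cells switch on during an antiviral response. The values came from LP day 7 sample 3, which exceeded the median of the other 11 samples by 4.57-fold for IFI44L to 305-fold for ISG17. ISG17 had 1151 CPM there and 1.74 to 7.25 CPM in the other 11 samples. MX1 had 2137 CPM there and 35.0 to 71.9 CPM in the others. Without this sample, the median was -0.0018, with 9 genes below and 8 above zero, none DE and 1 with an unadjusted p under 0.05. That gene was MX2, which had 14.5 to 79.9 CPM in the other 5 LP day 7 samples and 6.26 to 25.2 CPM at LP day 28 (log2 fold change -1.96, SE 0.39, FDR 0.0812). With edgeR's exact test and a common dispersion, which does not let the spread differ between genes, all 17 were DE over the 12 samples. High summed levels were also found outside these 2 groups, up to 2152 CPM on SPs and up to 1245 CPM at LP day 1.

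**Figure D4:**
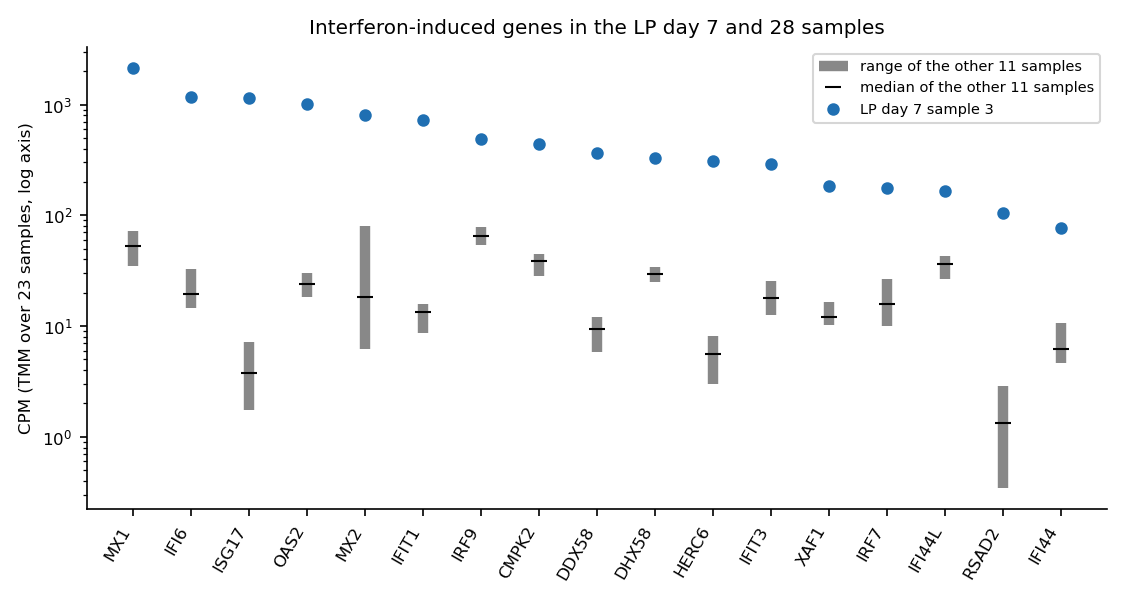
Expression of the 17 interferon-induced genes in CPM (log axis) in LP day 7 sample 3 (circles) and in the other 11 samples of LP days 7 and 28 (grey bars from lowest to highest, black dashes at the median). The circle is above the grey bar for all 17 genes.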

How the data were processed

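Total RNA of the PT was sequenced as Illumina cDNA fragment libraries. The authors deposited raw read counts per Ensembl sheep gene. The submitters' processing notes name Bowtie, HTSeq, and the build Oar_v3.1, whereas the deposited counts carry featureCounts-like headers, so the program that made the counts was not settled and its use of strand is not given in the sources used here. The analysis used edgeR 4.0.16 under R 4.3.3. The 12 samples were TMM normalized, genes above 1 CPM in 6 or more samples were kept, and the term for day was tested with edgeR's quasi-likelihood F test in a model with odd or even sample number, at a Benjamini-Hochberg FDR under 0.05. Standard errors were taken as the size of the log2 fold change over the root of F, and fold changes are those of the fit. CPM values shown are TMM normalized over all 23 samples. The samples, gene lists, covariate, and tests were chosen with earlier results of these data known. Total counts and the PRL share were compared with exact permutation tests.

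The genes named are DE genes with a symbol, genes of lowest p to make 10 in each direction, genes the study named for RNA-seq, CGA, TSHR, MTNR1A, DCT, VMO1, PRL, and GH1, and DE genes of the interaction test. List members and ENSOARG00000006830 were named after their values were seen. Lists are described by counts and medians, with no set test. Symbols for 1259 genes came from identity columns of the study's tables, which favour genes called there. No positions or sequences are given, because no annotation of Oar_v3.1 was used here. Alternatives used DESeq2 1.42.0, limma 3.58.1, other scalings, filters, covariates, and samples. Within LP day 7 and within LP day 28, no 2 samples were duplicates, with chi-square values of 4.70 or more per gene. Pairs across the groups were not compared. As the labels do not name animals, p-values measure the spread between these samples. The fit was also run on simulated counts with the spread fitted to these samples. Such a run cannot tell how firm the calls here are, and its outcome is not given.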

Additional observations from a re-analysis of the deposited data

Results flagged for a closer look

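Groups of 6 samples were searched for a sample far from the rest, for the named genes, total counts, the PRL share, and the 4 interferon-induced genes with the largest log2 fold change, which were chosen after their values were seen. Without the interferon-induced genes, 6 of 84 groups of values held such a sample, and chance gives about 4.2. The interferon-induced genes, picked for the sample that stood apart in them, added 4 of 8 groups, for which no chance share applies. LP day 7 sample 3 was the far sample in these 4 and in 1 of the 6 others. It had 1151 CPM of ISG17 against 1.74 to 7.25 CPM in the other LP day 7 samples, 104 CPM of RSAD2 against 0.764 to 2.90 CPM, 805 CPM of MX2 against 14.5 to 79.9 CPM, 310 CPM of HERC6 against 4.12 to 6.11 CPM, and 4.21 CPM of C1orf110 against 0.509 to 1.72 CPM. The log2 fold change of C1orf110 was 0.82 without it, and none of the 5 genes was DE with or without it.

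EYA3 had 969 CPM in LP day 7 sample 1, against 30.9 to 381 CPM in the other LP day 7 samples. WIF1 had 213 CPM in LP day 28 sample 6, against 56.0 to 91.5 CPM in the others of that day. CYP4V2 had 149 CPM in LP day 28 sample 4, against 209 to 242 CPM, and was DE (FDR 0.03) without that sample. DNAH8 had 0 CPM in LP day 7 sample 5, against 0.58 to 0.806 CPM. LP day 7 sample 6 had the fewest counts of its day, 2741520 against 3332930 to 3594414 in the others. The day difference of DRD1 differed between even and odd sample numbers by -2.61 on the log2 scale (FDR 0.0228, edgeR interaction test).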

How the results depend on the processing

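The number of DE genes moved with the processing from 10 (7 higher and 3 lower at LP day 28). It was 1 (0 and 1) without the covariate, 6 (4 and 2) with GH1 as a further covariate, 4 (3 and 1) in a fit over all 23 samples, 5 (4 and 1) in odd-numbered and 3 (0 and 3) in even-numbered samples alone. It was 50 (29 and 21) with no filter, 53 (31 and 22) with DESeq2, 33 (14 and 19) with edgeR's exact test and 251 (99 and 152) with a common dispersion, 13 (7 and 6) with robust estimation, 14 (9 and 5) with limma-voom, and 8 (3 and 5) with library size scaling, which moved the median log2 fold change of all genes to -0.12. At an FDR under 0.01, 1 gene was lower and 0 were higher, and at an FDR under 0.10, 15 were DE, 9 higher and 6 lower. Without the covariate 1061 genes had an unadjusted p under 0.05, and in even-numbered samples 672. With a sample left out, 1 to 19 genes were DE, 0 to 15 of them higher and 1 to 4 lower, and the interaction test gave 0 to 2, with 775 to 1358 at an unadjusted p under 0.05. The number DE by odd and even number was 264 with DESeq2 against 152. With the sample number as a replicate block, 6 genes were DE (4 and 2), of which 4 were among the 10. Of 6 same-numbered pairs, 1 had correlated deviations over 0.1, and 1 of 6 LP day 7 samples correlated best with its own number. Such correlations cannot tell whether the samples were paired in the design.

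Besides DRD1, the signs of 8 named genes turned in at least 1 setting. The DRD1 log2 fold change, 0.14 over the 12 samples, was 1.83 in odd-numbered and -0.78 in even-numbered samples alone. With a sample left out it ranged from -0.092 to 0.33. The KAL1 log2 fold change was -0.0242 without the covariate, -0.0267 and -0.0242 in the exact tests, -0.0115 with library size scaling, and -0.18 in odd-numbered samples. GPR56 was -0.11 with library size scaling and -0.21 in even-numbered samples, and PAQR6 was 0.046 with limma-voom and 0.064 in odd-numbered samples. In odd-numbered samples C1orf110 was -0.65 and SOX14 -0.34. In even-numbered samples NCAN was 0.41, EYA3 0.37, and MTNR1A 1.69, and MTNR1A was 0.30 with DESeq2. With a sample left out, the ranges were -0.14 to 0.15 for PAQR6, -0.0043 to 0.82 for C1orf110, -0.093 to 0.44 for SOX14, -0.10 to 0.12 for GPR56, -0.39 to 0.13 for EYA3, and -0.38 to 0.11 for MTNR1A. None of these genes was DE between the days with the settings of the report. The causes were not tested. At 3 counts, or up to 1.37 CPM, the depth limits NPSR1, C1orf110, SEMA3D, and DNAH8.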
